A study of Mus musculus with 6 samples.

Results

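The transcription factor p53 (gene Trp53) and its pathway were followed in I1DN cells, a murine acute myeloid leukemia (AML), sorted from mice given vehicle or AG636, an inhibitor of DHODH, the enzyme that makes orotate in de novo pyrimidine synthesis. The pathway was taken as 31 named genes: Trp53 with its feedback regulators and the classical p53 targets for arrest, death, repair and metabolism. All 31 were found by symbol among the 54838 genes of the deposited count table, and 28 of them had enough reads to be tested among 11092 genes.

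Both groups, Vehicle and AG636, had 3 mice each, and every sample carried the same leukemia genotype, IDH1R132H; DNMT3AR882H; NrasG12D, on the C57BL/6 background. The study's methods describe I1DN as fetal liver stem and progenitor cells transduced with constructs for these alleles, grown as a transplanted leukemia in sub-lethally irradiated Ptprca recipients, so host blood cells remain in these mice and the 6 samples stand for 1 leukemia model. The promoter behind each transgene, the age of the mice and the p53 genotype are not given in the sources used here. AG636 was given orally at 100 mg/kg (b.i.d. in the labels). The treatment time is not in the labels, and a figure legend of the study gives 1 day for the I1DN RNA sequencing. Immature AML cells, selected for cKit and against CD11b, were sorted from bone marrow and spleen, and RNA was read with a kit that sequences the 3′ ends of transcripts.

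In unstressed cells, p53 is kept scarce because Mdm2 marks it for destruction and Mdm4 blocks its activity. DNA damage, nucleotide shortage and faulty ribosome assembly each release it, and p53 then binds DNA as a tetramer and switches on genes that halt the cell cycle, repair DNA or kill the cell. It also switches on its own inhibitors, among them Mdm2, Ppm1d and Ccng1, so that the response limits itself. In AML with an intact TRP53 gene this pathway is a known brake on leukemic growth.

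The element that p53 reads is a pair of half-sites of 10 bases, each a palindrome around a CATG-like core, with at most 13 bases between them. RefSeq windows on GRCm38.p6, from 250 bases before to 50 after each annotated start, were found for 24 of the 31 genes; Tnfrsf10b, Rrm2b, Xpc, Ddb2, Zmat3, Trp53inp1 and Perp had none. They were searched with the p53 half-site consensus, which reads the same on both strands, a search added after the expression values were known. A half-site was found in 10 of the 24 genes, against 9.55% of the 27025 genes with a window, and a pair with at most 1 mismatch in 3 of them (Cdkn1a, Ccng1 and Rps27l), against 0.718%. The windows with a pair are shown first, since Cdkn1a and Ccng1 rose with AG636 and Rps27l had no detectable change. Capitals mark half-sites, mismatched ones included, 5′ to 3′ on the strand of the gene.
Cdkn1a, chr17:29090896-29090957, plus strand: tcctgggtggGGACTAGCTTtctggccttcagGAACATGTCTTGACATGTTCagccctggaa
Ccng1, chr11:40755452-40755491, minus strand: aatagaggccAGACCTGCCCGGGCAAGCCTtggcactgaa
Rps27l, chr9:66946286-66946325, plus strand: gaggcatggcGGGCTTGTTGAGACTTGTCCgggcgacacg
The first pair of Cdkn1a begins 73 bases before the annotated start at chr17:29090979, that of 1 of its 2 windows. It has no mismatch, with 12 bases between the half-sites, while the pair with no bases between has 1 mismatch. A pair without mismatch was found in 20 of all the genes searched, Cdkn1a included. Single half-sites are shown for the regulator Mdm2, for Sesn1, which rose, and for Aen, which fell.
Mdm2, chr10:117710925-117710954, minus strand: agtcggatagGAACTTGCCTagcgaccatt
Sesn1, chr10:41887256-41887285, plus strand: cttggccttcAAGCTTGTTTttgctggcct
Aen, chr7:78895927-78895956, plus strand: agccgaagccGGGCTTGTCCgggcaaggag
Of the 7 genes called higher that had a window, 4 held a half-site, as did 6 of the other 17. These matches describe letters in a short window, and occupancy by p53 was not measured.

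Libraries held 4634963 to 7906589 counts, so that 3 counts equal 0.392 to 0.637 CPM, the share of a sample's reads that a gene took, scaled by TMM library factors. The counts were tested by quasi-likelihood in edgeR, with p-values adjusted over all 11092 genes by the Benjamini-Hochberg method, and a gene was called at an adjusted p under 0.05. The p-values measure the spread between these mice alone. Each single-gene value was also put to an exact two-sided permutation test, which with 3 against 3 cannot go below 0.1. The first principal component held 58.6% of the variance and separated the groups, with Vehicle replicate 1 farthest out. Kit, the receptor used to sort the cells, was 43.1, 31.8 and 41.0 CPM in Vehicle and 46.3, 37.3 and 44.7 CPM in AG636, a difference that was not called (adjusted p = 0.550). Itgam, which encodes CD11b, the marker selected against, was detected in every sample and rose from 12.1, 18.3 and 27.0 to 60.1, 31.3 and 41.2 CPM (adjusted p = 0.0219). Its call was lost without Vehicle replicate 1 (0.0530) or 2 (0.0794) or without AG636 replicate 1 (0.0814) or 3 (0.0560). In bulk RNA, fewer cells of a type and less RNA per cell cannot be told apart.

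With AG636, 10 of the 28 genes tested rose, 1 fell and 17 were not called; without AG636 replicate 3, 4 rose and none fell, and without Vehicle replicate 2, 6 rose and none fell. The genes that rose were Trp53inp1, Ak1, Psrc1, Tnfrsf10b, Btg2, Cdkn1a, Polk, Ccng1, Xpc and Sesn1, and the one that fell was Aen. Over all genes tested, 10.3% were called higher and 11.0% lower. Their median log2 fold change was 0.53, beside 0.03 over all genes. In 12 of the genes all AG636 samples lay above all Vehicle samples, and in 2 all lay below, against 20.5% and 20.6% of all genes. Scaling by library size alone raised the share of all calls that were higher from 48.4% to 61.9% and the number of p53 pathway genes called higher to 12, with 1 lower. Ak1 and Tnfrsf10b passed the count minimum only with the AG636 samples, the group in which they were high. With at least 10 counts required in every sample, 25 p53 pathway genes were tested. Of these 8 rose and 1 fell, and their median was 0.46.

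The median was higher in each AG636 mouse than in any Vehicle mouse. Relative to the vehicle mean on the log2(CPM + 1) scale, the median over the 28 genes was 0.43, 0.53 and 0.52 in the AG636 samples and -0.02, 0.04 and 0.01 in the Vehicle samples. Since each gene was set against its own vehicle mean, the Vehicle medians lie near 0 by construction. Over all genes tested the medians in the AG636 samples were 0.02, 0.02 and 0.02. AG636 replicate 2 was the highest of its group in 14 of the 28 genes and the lowest in 9, and replicates 1 and 3 were the lowest in 10 and 9.

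**Figure D1:**
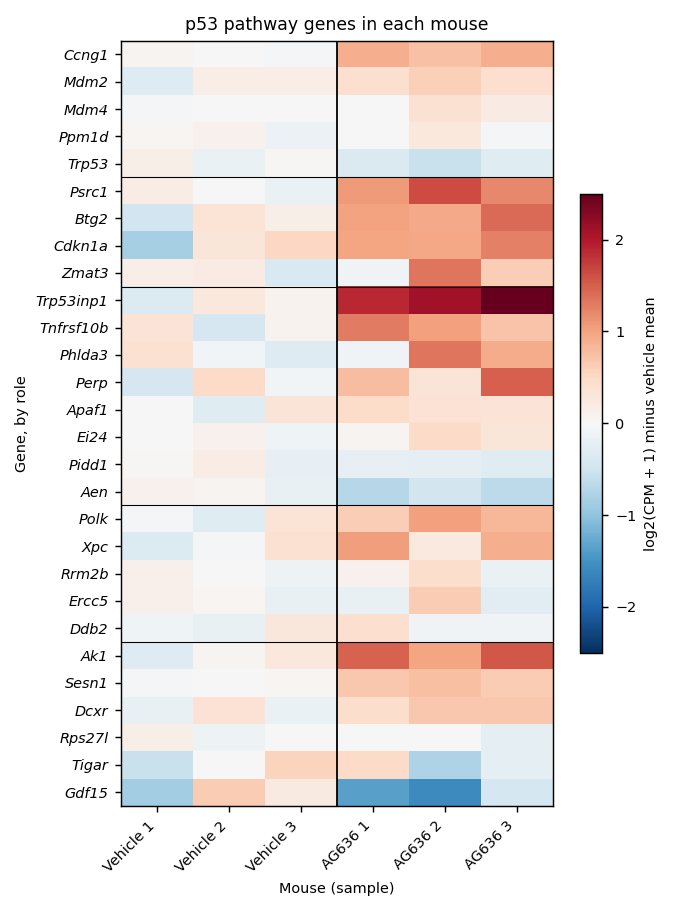
Heat map of log2(CPM + 1) minus the vehicle mean for the 28 p53 pathway genes tested (rows, grouped by role: feedback, arrest, death, repair, metabolism) in the 6 mice (columns); red is above and blue below the vehicle mean. Trp53inp1, Ak1 and Psrc1 are red in all 3 AG636 mice, Aen is blue in all 3, and Zmat3, Phlda3 and Tigar differ between AG636 mice.

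Among p53 and its feedback regulators, Ccng1 alone was called, higher, of 5 genes tested, against 10.3% called higher over all genes tested. Trp53 RNA itself (chr11:69580359-69591873) was 54.7, 43.8 and 50.4 CPM in Vehicle and 38.0, 33.2 and 39.6 CPM in AG636. The groups did not overlap, with every AG636 sample lower, and the log2 difference of -0.42 (SE 0.15) had an adjusted p of 0.0727. Mdm2, the ubiquitin ligase for p53 (chr10:117688875-117710758), was 52.1, 72.7 and 72.9 CPM in Vehicle and 86.7, 98.8 and 87.4 CPM in AG636. Every AG636 sample was above every Vehicle sample, but the log2 difference of 0.46 (SE 0.16) gave an adjusted p of 0.0587, and the call was made with library size alone (adjusted p = 0.0372), without a filter on low counts (0.0463) and on counts thinned to the smallest total (0.0467). It was not called with DESeq2 (0.0542), with limma-voom (0.0546) or in any of the 6 fits that left out 1 sample (0.0674 to 0.188), and without Vehicle replicate 1 the log2 difference was 0.30.

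Ccng1, cyclin G1, which recruits a phosphatase to Mdm2, lies on chr11:40748552-40755311. It was 84.9, 80.7 and 78.1 CPM in Vehicle and 153, 135 and 154 CPM in AG636, so the groups were far apart and tight within themselves. Its mean rose from 81.2 ± 3.39 to 147 ± 10.6 CPM (SD, n = 3 each), a log2 fold change of 0.86 (SE 0.12, adjusted p = 0.00320), and it was called in all 6 fits that left out 1 sample. Mdm4, the partner of Mdm2 that masks the activation domain of p53, ranged from 117 to 120 CPM in Vehicle and from 117 to 155 CPM in AG636 (log2 difference 0.20, adjusted p = 0.284). Ppm1d, the phosphatase Wip1 that switches off damage signalling, ranged from 24.2 to 29.0 and from 26.4 to 32.8 CPM (0.07, adjusted p = 0.778). Both overlapped between groups.

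In the arrest group 3 of the 4 genes tested rose and none fell, against 10.3% and 11.0% over all genes tested. Cdkn1a, the cyclin-dependent kinase inhibitor p21 (chr17:29090976-29100727), was 24.1, 54.5 and 63.3 CPM in Vehicle and 87.3, 86.8 and 106 CPM in AG636. The groups did not overlap, and Vehicle replicate 1 was well under the other 2 mice. The log2 fold change was 0.98 (SE 0.28, adjusted p = 0.0353). It was 0.65 without Vehicle replicate 1 (adjusted p = 0.0310), and the call was lost without Vehicle replicate 2 (0.0752), AG636 replicate 1 (0.0765) or AG636 replicate 3 (0.112).

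Btg2, an antiproliferative adaptor of mRNA deadenylation (chr1:134075170-134079120), was 9.45, 17.4 and 15.0 CPM in Vehicle and 28.0, 27.2 and 37.8 CPM in AG636. It rose by a log2 fold change of 1.14 (SE 0.25, adjusted p = 0.0127), and the adjusted p without AG636 replicate 3 was 0.0550. Psrc1, a microtubule-binding protein of the mitotic spindle (chr3:108383839-108388231), was 12.8, 11.1 and 9.82 CPM in Vehicle and 24.6, 36.7 and 27.2 CPM in AG636. Every AG636 value was well above the vehicle range, and the log2 fold change of 1.39 (SE 0.21, adjusted p = 0.00425) was called in all 6 fits that left out 1 sample. Zmat3, an RNA-binding regulator of splicing, was 10.9, 11.2 and 7.10 CPM in Vehicle and 8.92, 25.6 and 15.3 CPM in AG636. AG636 replicate 1 lay within the vehicle range, and the gene was not called (log2 difference 0.76, SE 0.36, adjusted p = 0.151), although it was without a filter on low counts (0.0429). Its log2 difference rested largely on AG636 replicate 2, without which it was 0.30 (adjusted p = 0.518). Plk2, a polo-like kinase, was below the count minimum, with 0, 4 and 3 counts in Vehicle and 7, 5 and 8 in AG636.

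**Figure D2:**
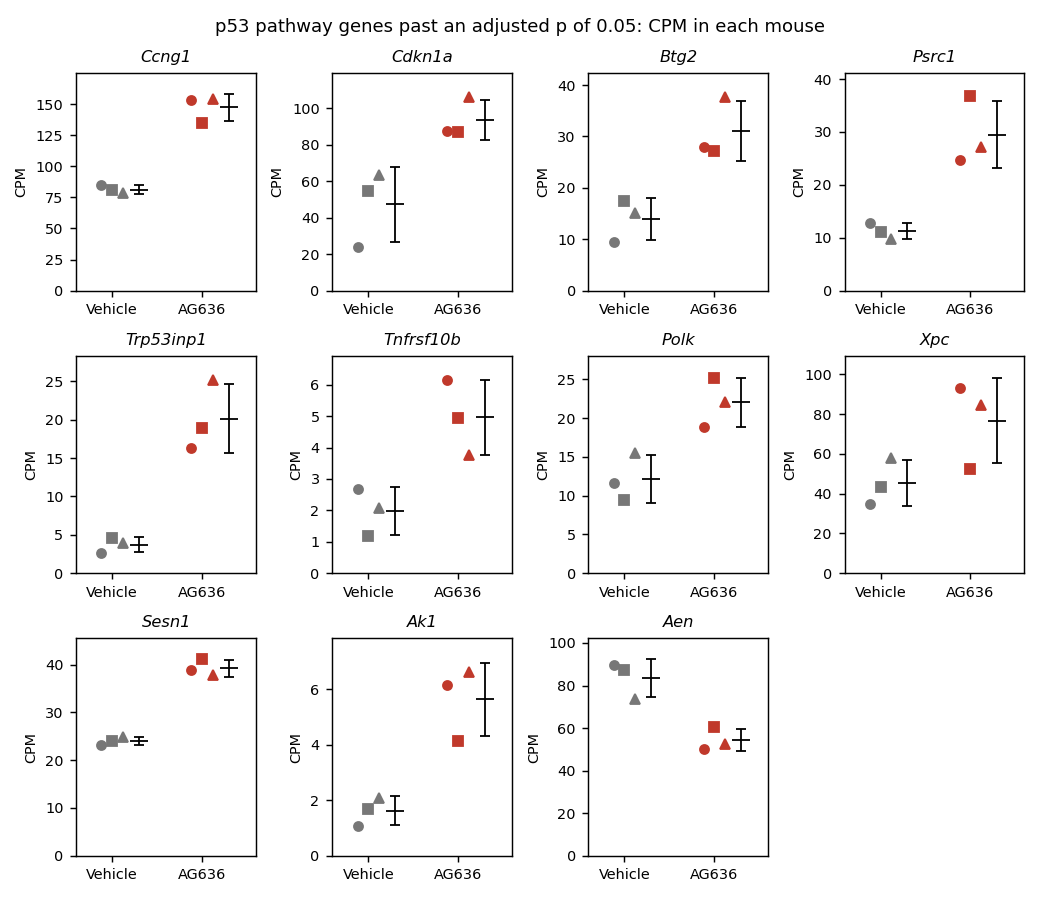
CPM (vertical axes, from 0) of the 11 p53 pathway genes called, in Vehicle (grey) and AG636 (red) mice; circles, squares and triangles are replicates 1, 2 and 3 of each group, and the bar beside them is the mean ± SD (n = 3). Xpc alone overlaps between the groups, and Aen is the gene that fell.

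The death group had 10 genes, of which 8 were tested, 2 rose and 1 fell. The shares over all genes tested were 10.3% higher and 11.0% lower. Trp53inp1, a stress protein that promotes p53 phosphorylation and autophagy (chr4:11156431-11174379), was 2.67, 4.58 and 3.97 CPM in Vehicle and 16.4, 19.0 and 25.1 CPM in AG636. No AG636 sample came near the vehicle range. The mean rose from 3.74 ± 0.972 to 20.1 ± 4.49 CPM, a fold of 5.32 (log2 2.41, SE 0.28, adjusted p = 0.00203), called in all 6 fits that left out 1 sample. Tnfrsf10b, the death receptor for TRAIL (chr14:69767472-69784411), was 2.67, 1.18 and 2.09 CPM in Vehicle and 6.16, 4.95 and 3.78 CPM in AG636, from 34 and 73 counts. Its log2 fold change of 1.35 (SE 0.40, adjusted p = 0.0384) was called in 1 of the 6 fits that left out 1 sample, the one without Vehicle replicate 1. In the other 5 the adjusted p was between 0.0648 and 0.135, and with DESeq2 it was 0.0528.

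Aen, an exonuclease that digests DNA in apoptosis (chr7:78895854-78911209), was 89.9, 87.5 and 73.6 CPM in Vehicle and 50.3, 60.4 and 52.5 CPM in AG636. All AG636 samples lay below all Vehicle samples, and the gene fell by 0.62 on the log2 scale (SE 0.14, adjusted p = 0.0146). The call was lost without Vehicle replicate 2 (0.0515), AG636 replicate 1 (0.0588) or AG636 replicate 3 (0.0594). Aen was thus opposite in sign to the other genes called.

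Perp, a desmosomal membrane protein linked to p53-dependent death, was 41.2, 77.2 and 52.9 CPM in Vehicle and 95.6, 69.7 and 158 CPM in AG636. AG636 replicate 2 lay inside the vehicle range. The log2 difference of 0.91 (SE 0.30) had an adjusted p of 0.0541, and the gene was called with DESeq2 (0.0117), without a filter on low counts (1.62e-06), with library size alone (0.0425), on thinned counts (0.0467) and without AG636 replicate 2 (0.0184). It was not called with limma-voom (0.0649) or in the other 5 fits that left out 1 sample (0.0555 to 0.209), and without AG636 replicate 3 the log2 difference was 0.53. Phlda3, an inhibitor of Akt, was 5.35, 3.66 and 2.93 CPM in Vehicle and 3.61, 11.3 and 8.31 CPM in AG636 (log2 difference 0.96, SE 0.42, adjusted p = 0.125). AG636 replicate 1 was at the vehicle level, and without it the gene was called (0.0497). In the other 5 such fits the adjusted p ranged from 0.119 to 0.356, and without AG636 replicate 2 the log2 difference was 0.59. Apaf1, the scaffold of the apoptosome, was 39.4, 32.0 and 49.7 CPM in Vehicle and 55.0, 51.6 and 50.8 CPM in AG636. Its groups did not overlap, by a narrow margin, and it was not called (log2 difference 0.38, adjusted p = 0.140).

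Ei24, a membrane protein of the endoplasmic reticulum, ranged from 61.0 to 70.9 CPM in Vehicle and from 69.5 to 92.0 CPM in AG636 (log2 difference 0.29, adjusted p = 0.169). Pidd1, the platform that activates caspase-2, ranged from 17.1 to 22.8 and from 16.0 to 17.2 CPM (-0.27, adjusted p = 0.320). Fas, the death receptor for Fas ligand, was below the count minimum with 4, 6 and 2 counts in Vehicle and 8, 14 and 18 in AG636. With no filter it had a log2 difference of 1.96 and an adjusted p of 0.0146, and of the 4 fits with 1 sample left out in which it could be tested it was called in 1, without AG636 replicate 1 (0.0337), and was between 0.0550 and 0.0628 in the others. Eda2r, the receptor for ectodysplasin A2, was listed with 1 count in all Vehicle samples together and 4 in those of AG636.

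**Figure D3:**
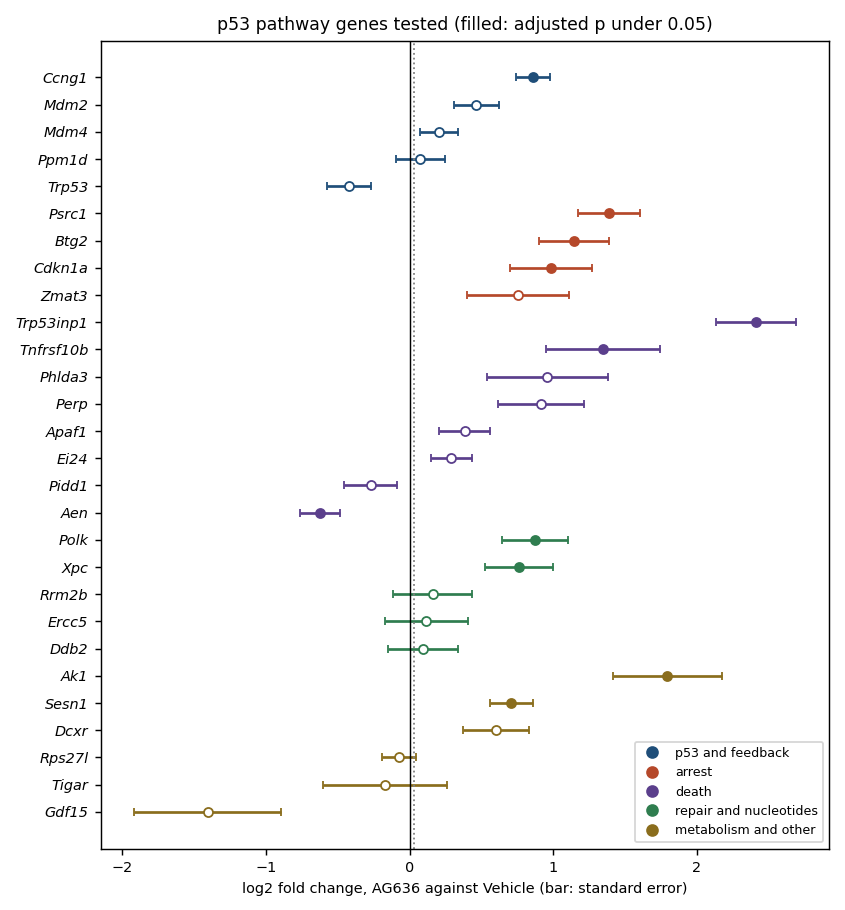
Log2 fold change, AG636 against Vehicle, of the 28 p53 pathway genes tested, by role (colour), with bars of ± 1 standard error; filled circles have an adjusted p under 0.05 and the dotted line is the median of all genes, 0.03. Values run from -1.40 (Gdf15, not called) to 2.41 (Trp53inp1), and 22 of the 28 are above 0.

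Of the 5 genes of DNA repair and nucleotide supply, 2 rose, against 10.3% over all genes tested. Polk, the DNA polymerase kappa that copies across lesions (chr13:96480690-96542579), was 11.6, 9.42 and 15.5 CPM in Vehicle and 18.9, 25.2 and 22.1 CPM in AG636. The groups did not overlap (log2 fold change 0.87, SE 0.23, adjusted p = 0.0259). Its adjusted p was 0.0650 without Vehicle replicate 1, 0.0884 without Vehicle replicate 2, 0.0587 without AG636 replicate 2 and 0.0746 without AG636 replicate 3. Xpc, the sensor of helix distortion in nucleotide excision repair (chr6:91489305-91515888), was 34.9, 43.2 and 57.9 CPM in Vehicle and 93.0, 52.6 and 84.6 CPM in AG636. AG636 replicate 2 lay below Vehicle replicate 3, so the groups overlapped, although the gene was called (log2 fold change 0.76, SE 0.24, adjusted p = 0.0454). The adjusted p was 0.130 without Vehicle replicate 1, 0.137 without Vehicle replicate 2, 0.155 without AG636 replicate 1, 0.136 without AG636 replicate 3 and 0.0535 on thinned counts.

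The other repair genes overlapped between the groups and were not called. Ddb2, the partner of Xpc in finding ultraviolet damage, ranged from 11.4 to 16.1 CPM in Vehicle and from 12.1 to 17.6 CPM in AG636 (log2 difference 0.09, adjusted p = 0.804). Ddb2 shares 4705 exon bases with Acp2 on the opposite strand, and whether the counting used strand is not stated, so its level is uncertain. Ercc5, the excision endonuclease XPG, was 9.98, 18.6 and 9.25 CPM in AG636 against 10.03 to 12.7 CPM in Vehicle (0.12, adjusted p = 0.797). Only AG636 replicate 2 stood above the vehicle range, and without it the difference was -0.27. Rrm2b, the p53-inducible small subunit of ribonucleotide reductase, ranged from 5.85 to 7.13 and from 5.66 to 9.07 CPM (0.16, adjusted p = 0.705).

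In the metabolic and other targets, 2 of 6 genes rose, against 10.3% over all genes tested. Sesn1, sestrin 1, which restrains mTORC1 when leucine is short (chr10:41809935-41908424), was 23.2, 24.1 and 24.9 CPM in Vehicle and 38.9, 41.2 and 37.8 CPM in AG636. Both groups were tight and well apart (log2 fold change 0.71, SE 0.15, adjusted p = 0.0120), and the call was made in all 6 fits that left out 1 sample. Ak1, adenylate kinase 1 (chr2:32621758-32635058), was 1.07, 1.70 and 2.09 CPM in Vehicle and 6.16, 4.12 and 6.61 CPM in AG636, from 29 and 84 counts. It rose by a log2 fold change of 1.79 (SE 0.38, adjusted p = 0.0121), with an adjusted p of 0.0538 without AG636 replicate 3. Ak1 and Tnfrsf10b each had under 10 counts in 1 Vehicle sample.

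Gdf15, a secreted cytokine of the TGF-beta family that stress pathways besides p53 also induce, went the other way in mean, at 3.39, 11.4 and 8.36 CPM in Vehicle and 2.12, 1.65 and 4.91 CPM in AG636. Vehicle replicate 1 lay within the AG636 range. The log2 difference of -1.40 (SE 0.51) had an adjusted p of 0.0742, and the gene was called lower with DESeq2 (0.0441), without a filter on low counts (0.00135) and without Vehicle replicate 1 (0.0297). It was not called with limma-voom (0.103) or in the other 5 fits that left out 1 sample (0.0573 to 0.273), and the log2 difference was -0.99 without Vehicle replicate 2. Dcxr, a xylulose reductase, was 9.63, 14.6 and 9.82 CPM in Vehicle and 15.5, 18.4 and 18.3 CPM in AG636. Its groups did not overlap, and it was not called (log2 difference 0.60, SE 0.23, adjusted p = 0.0841). Tigar, a phosphatase that lowers fructose-2,6-bisphosphate, ranged from 3.74 to 9.19 and from 3.09 to 8.71 CPM (-0.17, adjusted p = 0.797). Rps27l, a ribosomal protein paralogue that p53 induces, ranged from 350.2 to 423 and from 327 to 384 CPM (-0.07, SE 0.12, adjusted p = 0.687), and its level is uncertain, since its paralogue Rps27 is close in sequence and the treatment of multi-mapping reads is not given in the sources used here.

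**Figure D4:**
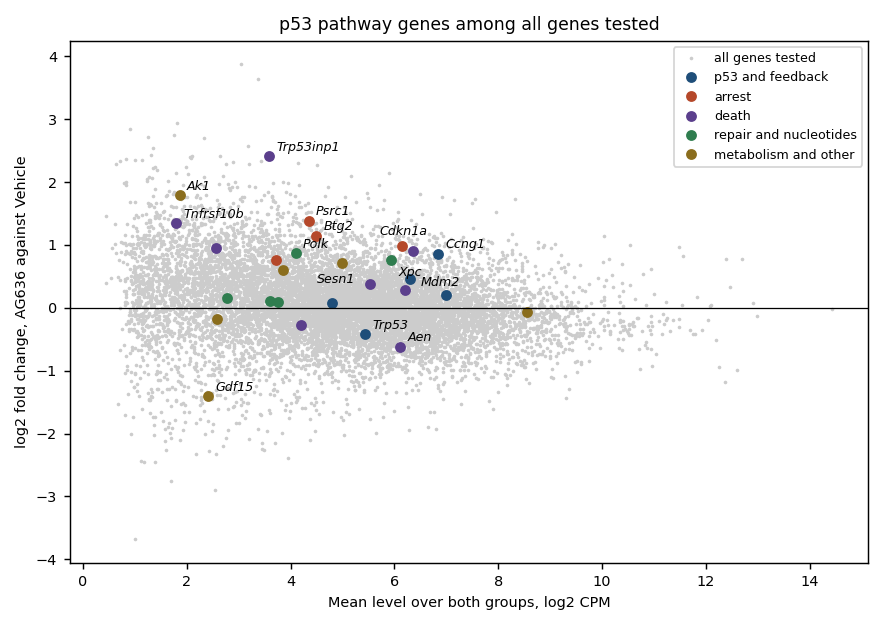
Log2 fold change against the mean level (log2 CPM over both groups) for the 11092 genes tested (grey) and the 28 p53 pathway genes (colour by role); the genes called are named, with Trp53, Mdm2 and Gdf15. Trp53inp1 at 2.41 lies near the upper edge of the genes at its level, and Trp53 at -0.42 lies below 0.

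Other genes of the pathway were counted from lists written for this comparison. Of 20 further p53 targets, 17 were tested, 4 rose and 1 fell, with a median log2 fold change of 0.46. Over all genes tested, 10.3% rose and 11.0% fell. Abhd4, a lipid hydrolase, was 42.8, 31.7 and 37.2 CPM in Vehicle and 62.7, 82.3 and 63.0 CPM in AG636 (log2 fold change 0.90, SE 0.17, adjusted p = 0.00799). Bbc3, which encodes the BH3-only death protein Puma, was 15.9, 20.8 and 17.1 CPM in Vehicle and 30.2, 28.9 and 42.3 CPM in AG636 (0.91, SE 0.20, adjusted p = 0.0147). Cd82, a tetraspanin, went from 42.3, 31.4 and 27.6 CPM to 18.1, 18.4 and 12.3 CPM, and fell by 1.06 on the log2 scale (SE 0.23, adjusted p = 0.0126). None of the 3 overlapped between groups. Bbc3 was not called without Vehicle replicate 1 (0.0511) or AG636 replicate 3 (0.0619), nor Cd82 without AG636 replicate 3 (0.0518).

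Of 18 kinases, cofactors and other modifiers that act on p53, 1 rose (5.6%), none fell, and the median was 0.07. Log2 differences in the list ran from -0.35 to 1.31, the latter in a gene that was not called. The shares over all genes tested were 10.3% higher and 11.0% lower. The gene that rose was Hexim1, an inhibitor of the elongation kinase P-TEFb that also binds p53 (log2 fold change 1.02, SE 0.24, adjusted p = 0.0168), at 54.7, 46.0 and 68.5 CPM in Vehicle and 144, 73.6 and 125 CPM in AG636. It was not called without Vehicle replicate 2 (0.0742), AG636 replicate 1 (0.0649) or AG636 replicate 3 (0.0602).

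Ribosomal proteins and nucleolar factors linked to the control of Mdm2 when ribosome assembly fails formed a further list, not all of them binding Mdm2 themselves. Of 10 tested, 6 fell and none rose, against 11.0% lower and 10.3% higher over all genes tested. The median was -0.37 and all 10 differences were below 0. Npm1, nucleophosmin, fell by 0.97 on the log2 scale (SE 0.13, adjusted p = 0.00298), with every AG636 sample under every Vehicle sample. Ncl, nucleolin, fell by 0.92 on that scale (SE 0.14, adjusted p = 0.00398), and both were called in all 6 fits that left out 1 sample.

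Genes that p21 represses through the DREAM complex, most of them for mitosis, were tested as a list of 20. In it, 2 rose (10%), 1 fell (5%) and the median was 0.09. Neither share exceeded that of all genes tested, 10.3% higher and 11.0% lower. Ccnb2, a mitotic cyclin, rose by 0.55 (SE 0.13, adjusted p = 0.0159), and Kif23, a kinesin of cytokinesis, by 0.53 (SE 0.14, adjusted p = 0.0288), both as log2 fold changes. Mybl2, a cell cycle transcription factor, fell by 0.58 on the log2 scale (SE 0.13, adjusted p = 0.0143). Ccnb2 and Mybl2 were not called without AG636 replicate 3 (0.0620 and 0.0614), nor Ccnb2 without Vehicle replicate 2 (0.0641). Kif23 was called in 2 of 6 fits that left out 1 sample, with adjusted p from 0.0719 to 0.0973 without Vehicle replicates 1 or 2 or AG636 replicates 2 or 3. Trp63 and Trp73, the relatives of Trp53, were below the count minimum, with 16 and 0 counts in Vehicle and 3 and 3 in AG636.

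Markers of blood cell maturation also differed between the groups. Over all genes tested, 10.3% were called higher and 11.0% lower, which stand beside the counts of these short lists. Of 10 mature neutrophil markers 7 rose and none fell, and their summed level ranged from 1042 to 2377 CPM in Vehicle and from 2902 to 5896 CPM in AG636. S100a8 and S100a9 made up most of that sum in every sample. S100a9 was called higher (adjusted p = 0.0305), while S100a8 overlapped between the groups and was not called (0.0872). Of 8 monocyte and macrophage markers tested 2 rose, with sums over the list of 53.5 to 75.9 and 110.1 to 149.9 CPM. Ly6c2 took the largest part of that sum in every sample. It had 118, 284 and 185 counts in Vehicle and 517, 195 and 334 in AG636. Of 10 erythroid markers 2 fell and none rose, 9 had a difference below 0, and the median log2 difference was -0.79. Their sum ranged from 2026 to 5328 CPM in Vehicle, highest in Vehicle replicate 1, and from 2171 to 3706 CPM in AG636. None of 6 granulocyte-monocyte progenitor markers was called, and of 4 megakaryocyte markers tested 2 rose, with sums of 774 to 1207 and 1045 to 1699 CPM. Vehicle replicate 1 had the lowest neutrophil sum, the lowest Cdkn1a and the lowest Mdm2 of all samples. Among the Vehicle mice it was the lowest in 12 of the 28 p53 pathway genes tested. It was the highest of them in 9, with Trp53 and Ccng1 among these. The part of these cell types in the p53 pathway values was not tested. Of the lists for T and NK cells, B and plasma cells, and stroma and endothelium, 1 gene each had enough reads to be tested, and none was called. These were Nkg7, with 5014 counts over the Vehicle and 5797 over the AG636 samples, Cd79b (190 and 228) and Pecam1 (2760 and 2905). Some other markers of these lists were at or near 0. They had 2 and 4 counts of Cd3e, 1 and 1 of Ms4a1 and 0 and 0 of Lepr and Cdh5. Others had reads in every sample. Jchain had 11, 10 and 9 counts in Vehicle and 5, 25 and 14 in AG636. Cd3d had 1, 12 and 5 counts in Vehicle and 4, 7 and 13 in AG636.

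**Figure D5:**
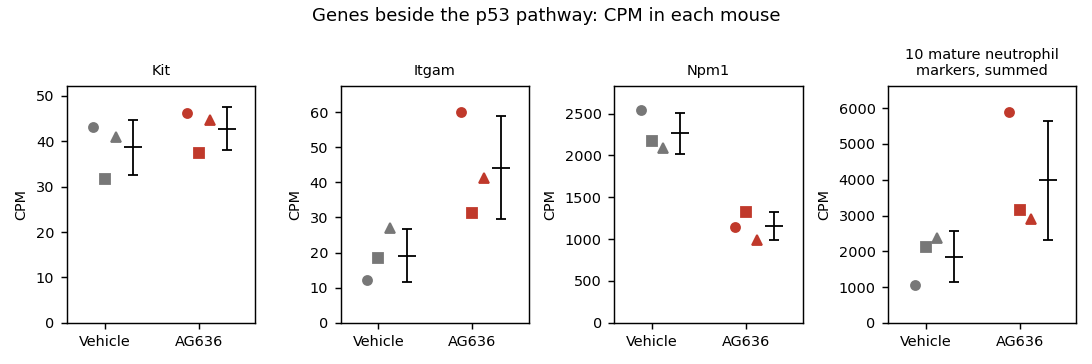
CPM (vertical axes, from 0) of Kit, Itgam, Npm1 and the sum of 10 mature neutrophil markers in Vehicle (grey) and AG636 (red) mice, with replicates 1, 2 and 3 as circles, squares and triangles and the mean ± SD (n = 3) beside them. Kit overlaps between the groups, Npm1 is lower and Itgam and the neutrophil sum are higher in every AG636 mouse.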

How the data were processed

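RNA from sorted I1DN cells of 3 Vehicle and 3 AG636 mice was sequenced from transcript 3′ ends. The authors deposited counts, the whole number of reads assigned to each gene and sample. The submitters' processing notes name FastQC, cutadapt 1.9.1, HISAT2 2.0.4, featureCounts and Subread 1.5.0-p3, with builds GRCm38 and mm10; the strand setting and the treatment of multi-mapping reads are not given in the sources used here, and no molecular identifiers are described, so the stated floors cover counting error only. Symbols came from GENCODE for 54723 identifiers, and 0 per-sample columns were left unused.

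Genes were filtered (filterByExpr, count at least 10, total at least 15) and tested in edgeR 4.0.16 under R 4.3.3 (TMM scaling, quasi-likelihood test, Benjamini-Hochberg adjustment). The standard error was the size of the log2 fold change divided by the square root of F. Alternatives used DESeq2 1.42.0, limma 3.58.1 (voom), other size factors, other filters, thinned counts, a replicate block and each sample left out. Scripts were tested on simulated data. Permutation tests used SciPy 1.17.1. Sample groups were taken from the titles. Differences between replicates exceeded sampling noise, so none was counted as a duplicate.

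The 31 genes and all lists were chosen with earlier results of these data known. All 31 were named, and from each other pathway list at most 2 genes per direction, those with the lowest p among the genes called; Kit and Itgam were named as the genes of the sort, and other markers where a statement turned on them. Promoter windows came from RefSeq (GRCm38.p6) and gene coordinates from the deposited table (GRCm38). Results for some marker genes are not reported here.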

Additional observations from a re-analysis of the deposited data

How the results depend on the processing

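The number of p53 pathway genes called higher was within 1.5 times of 10 under DESeq2, limma-voom, other size factors, the other filters and thinning. Genes called lower numbered 2 with DESeq2 and with no filter on low counts. The median log2 fold change was 0.62 with library size alone, 0.68 with no filter and 0.46 with at least 10 counts in every sample. At an adjusted p under 0.01, 231 genes were called higher and 325 lower, and of the p53 pathway 3 and 0. Leaving out 1 sample at a time gave 399 to 1074 genes higher and 452 to 1298 lower, against 1146 and 1222 with all samples. It gave 4 to 9 p53 pathway genes higher, with 4 without AG636 replicate 3 and 6 without Vehicle replicate 2, 0 to 2 lower, and a median of 0.40 to 0.70. Beyond the smaller number of samples, the cause of these moves was not tested.

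Directions changed for 6 genes, none of them called. With 1 sample left out, log2 differences ran from -0.035 to 0.13 for Ppm1d, -0.11 to 0.23 for Ddb2, -0.27 to 0.30 for Ercc5, -0.036 to 0.31 for Rrm2b and -0.64 to 0.15 for Tigar. Rps27l was 0.015 with library size alone.

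The replicate numbers do not pair the samples: the deviations of same-numbered samples correlated at -0.06, -0.18 and 0.22, and not every sample correlated best with its own number. With a replicate block, 914 genes were called higher and 1046 lower, and of the p53 pathway 8 and 1, with a median of 0.55; Tnfrsf10b (adjusted p = 0.0522) and Xpc (0.0525) were then not called. Plk2, Fas and Eda2r did not pass the main filter; with no filter their adjusted p-values were 0.174, 0.0146 and 0.557.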
